A study of Mus musculus with 8 samples.

Results

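The S100 genes encode small calcium-binding proteins that work mostly as pairs of subunits, and 8 of them are described here: S100a8, S100a9, S100a11, S100a6, S100a10, S100a4, S100a13 and S100a1. They were taken by symbol from the deposited expression table, as 8 of its 48500 genes, and all 8 passed the filter on low values that left 12524 genes for testing. All 8 lie on mouse chromosome 3. The comparison sets leukaemia stem cells (LSCs) without Nynrin beside cells that have it, and the study's title links the gene to TXNIP, redox balance and resistance to venetoclax, a BCL2 inhibitor. RNA-seq libraries were made with a Smart-Seq V4 ultra-low-input kit, each from about 10000 bone marrow cells gated as GFP+, c-Kit+ and Gr-1-. The cells came from Nynrin-/- mice (Nynrin-KO, 4 libraries, KO1 to KO4) or from Nynrin+/+ mice (WT, 4 libraries, WT1 to WT4). In both groups the acute myeloid leukaemia was driven by HOXA9 and MEIS1. The sources used here give no age or strain. Separate mice are not named for the libraries either, so the p-values measure the spread among these libraries, which may be technical.

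S100 proteins carry a pair of EF-hand loops. Calcium binding opens a surface on which each protein holds its partners, which include annexins, myosin and receptors. In bone marrow, S100A8 and S100A9 are among the main cytosolic proteins of neutrophils and their late precursors, where they form calprotectin, which binds calcium and zinc. Once released they act as alarm signals on receptors such as TLR4.

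The deposited values were read as FPKM, fragments per kilobase of transcript and 1e6 fragments, so levels of different genes are set side by side per length. Depth recovered from the values was 1.83 to 28.7 M reads (M for mega) in the Nynrin-KO libraries and 1.96 to 33.1 M in the WT libraries, with KO3 and WT3 the shallowest. Nynrin itself was at 0.0982 to 0.437 FPKM in Nynrin-KO libraries and 0.0080 to 0.286 FPKM in WT libraries, so its level does not check the labels. Kit, the positive marker of the sort, was at 2.92 to 4.91 FPKM in Nynrin-KO libraries and 2.63 to 6.40 FPKM in WT libraries. The Gr-1 gene Ly6g, whose product the sort selected against, was at 93.5 to 264 FPKM in Nynrin-KO libraries and 0.707 to 49.3 FPKM in WT libraries. WT1 stood apart, with a summed level of 14 mature neutrophil genes of 1489 FPKM against at least 18566 FPKM in every other library. The gene model Gm10800 reached 3349 to 126894 FPKM in Nynrin-KO libraries and 6076 to 142258 FPKM in WT libraries. Xist was at 0.0175 to 12.7 FPKM in Nynrin-KO libraries and 15.2 to 26.5 FPKM in WT libraries, and the Y-linked Ddx3y at 2.18 to 20.7 FPKM in Nynrin-KO libraries and 0 to 0.111 FPKM in WT libraries, with KO1 the Nynrin-KO library that had both. Sex of the mice and genotype therefore cannot be told apart. In bulk RNA, fewer cells of a type and less RNA per cell cannot be told apart either, which touches every value below.

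In Nynrin-KO LSCs 3 of the 8 S100 genes rose relative to WT LSCs, and no fall passed the test. S100a11 and S100a6, which encode partners of annexins and of the calcyclin-binding protein, were 4.18-fold and 3.85-fold higher as fitted, and S100a1 was 1.64-fold higher. With 1 library left out at a time, S100a11 and S100a6 passed in all 8 fits and S100a1 in only 1. S100a8 and S100a9, the most abundant members, had no overlap between groups but did not pass the test. Their fitted log2 differences, 2.51 and 2.66, were the largest with all 8 libraries. Without WT1 they were 1.32 and 1.41, below S100a6 at 1.69 and S100a11 at 1.63, and by ratio of means they were also below both (3.34 and 3.53, against 3.68 for S100a6 and 3.85 for S100a11). S100a10, the annexin A2 partner, was the only member with a negative difference, and it did not pass. In counts, limma called 3 of the 8 members higher and 0 lower at an adjusted p under 0.05, where 27.9% of the 12524 genes tested were called, 14.0% higher and 13.8% lower. At an unadjusted p under 0.05 and by voom on recovered reads, 0 members were lower as well. The groups did not overlap for 6 members, all higher in Nynrin-KO. The same held for 31.7% of all genes tested, 16.7% higher and 15.0% lower. The median log2 difference of the 8 members was 1.73, against -0.03 over all genes tested.

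**Figure D1:**
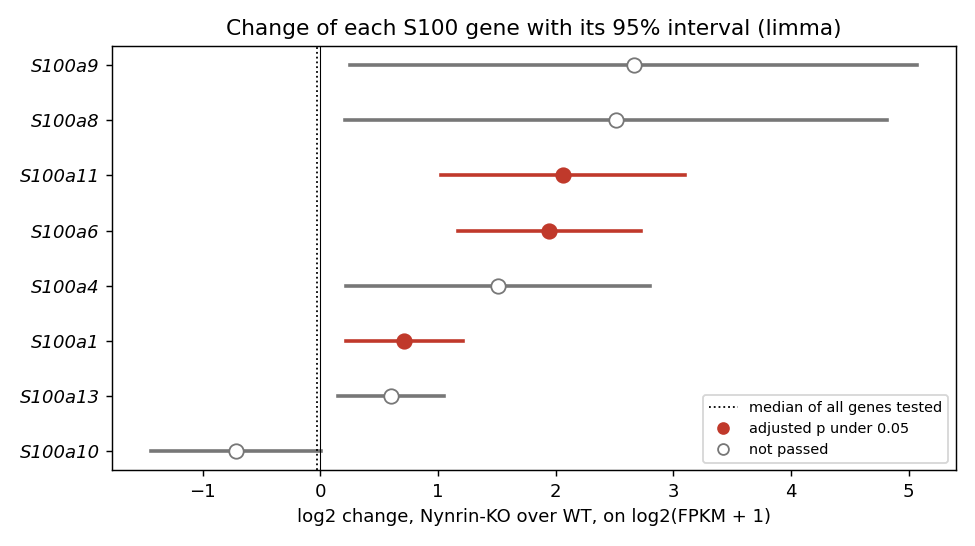
The horizontal axis gives the log2 difference of Nynrin-KO over WT on log2(FPKM + 1) for each S100 gene, with the 95% interval as a bar and filled points for adjusted p under 0.05. S100a11, S100a6 and S100a1 are filled, S100a9 and S100a8 have the largest values and the widest bars, and S100a10 alone lies below 0.

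S100a8 and S100a9 encode the subunits of calprotectin and lie 22.6 kb apart on opposite strands. S100a8 (ENSMUSG00000056054) spans GRCm38 chromosome 3 from 90668978 to 90670035 on the plus strand, and S100a9 (ENSMUSG00000056071) spans 90692632 to 90695721 on the minus strand. Their promoter windows, 250 bases before to 50 bases after the RefSeq start on GRCm38.p6, are shown because these are the 2 members whose levels moved together most closely. The S100a8 window is chr3:90668821-90669120 on the plus strand and the S100a9 window is chr3:90695672-90695971 on the minus strand. Capitals mark every match, on either strand, to the letters TATAAA (a core promoter element known as the TATA box), GAGGAAGT (a PU.1 site, here as its reverse complement ACTTCCTC) and TTGCNNAA (a C/EBP site).
S100a8 promoter: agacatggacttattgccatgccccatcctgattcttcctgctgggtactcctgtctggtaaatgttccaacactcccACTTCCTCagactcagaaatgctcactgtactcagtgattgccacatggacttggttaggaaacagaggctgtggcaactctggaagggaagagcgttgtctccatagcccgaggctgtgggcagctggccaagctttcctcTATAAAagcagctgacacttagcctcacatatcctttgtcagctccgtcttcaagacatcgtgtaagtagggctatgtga
S100a9 promoter: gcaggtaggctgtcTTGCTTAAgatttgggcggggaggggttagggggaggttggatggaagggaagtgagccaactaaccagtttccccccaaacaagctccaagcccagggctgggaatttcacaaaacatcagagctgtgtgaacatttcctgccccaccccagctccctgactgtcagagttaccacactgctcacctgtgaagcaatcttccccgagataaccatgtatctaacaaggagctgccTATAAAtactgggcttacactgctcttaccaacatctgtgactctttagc
The S100a8 window held TATAAA at bases 221 to 226 and the PU.1 letters at bases 79 to 86. The S100a9 window held TATAAA at bases 251 to 256, beginning at the annotated start, and the C/EBP letters at bases 15 to 22. Of 32851 mouse promoter windows of this length, 13.6% held TATAAA, 3.20% the PU.1 letters and 10.8% the C/EBP letters on either strand. These matches describe the letters only.

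S100a8 was at 128921, 58606, 103691 and 79209.9 FPKM in KO1 to KO4, against 1288, 37604, 26206 and 45965 FPKM in WT1 to WT4. All 4 Nynrin-KO libraries lay above all 4 WT libraries, and WT1 lay far below the other WT libraries. The means were 92607 ± 30425 FPKM in Nynrin-KO and 27766 ± 19421 FPKM in WT (SD, n = 4 each), a ratio of means of 3.34. On the log2(FPKM + 1) scale the difference was 2.51 with an SE of 1.02 and a 95% interval of 0.21 to 4.82, and it did not pass the threshold (limma adjusted p = 0.0975). Without WT1 the difference was 1.32 with an SE of 0.33 and passed (adjusted p = 0.0304). The estimate was thus smaller without WT1 while its error was also smaller.

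S100a9 ordered the libraries as S100a8 did, in both groups. It was at 74898, 32467, 53024 and 48355 FPKM in KO1 to KO4, against 581, 19820.4, 13217 and 25475 FPKM in WT1 to WT4. Again no WT library reached the lowest Nynrin-KO library, KO2. The means were 52186 ± 17513 FPKM in Nynrin-KO and 14773 ± 10706 FPKM in WT (SD, n = 4 each). The log2 difference was 2.66 with an SE of 1.07 and a 95% interval of 0.25 to 5.07, and did not pass (limma adjusted p = 0.0943). Without WT1 it was 1.41 with an SE of 0.34 and passed (adjusted p = 0.0276). S100a8 was the most abundant gene of the whole table in KO1, KO2, KO4 and WT4, second in KO3, and ranked 55 in WT1, where S100a9 ranked 144.

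**Figure D2:**
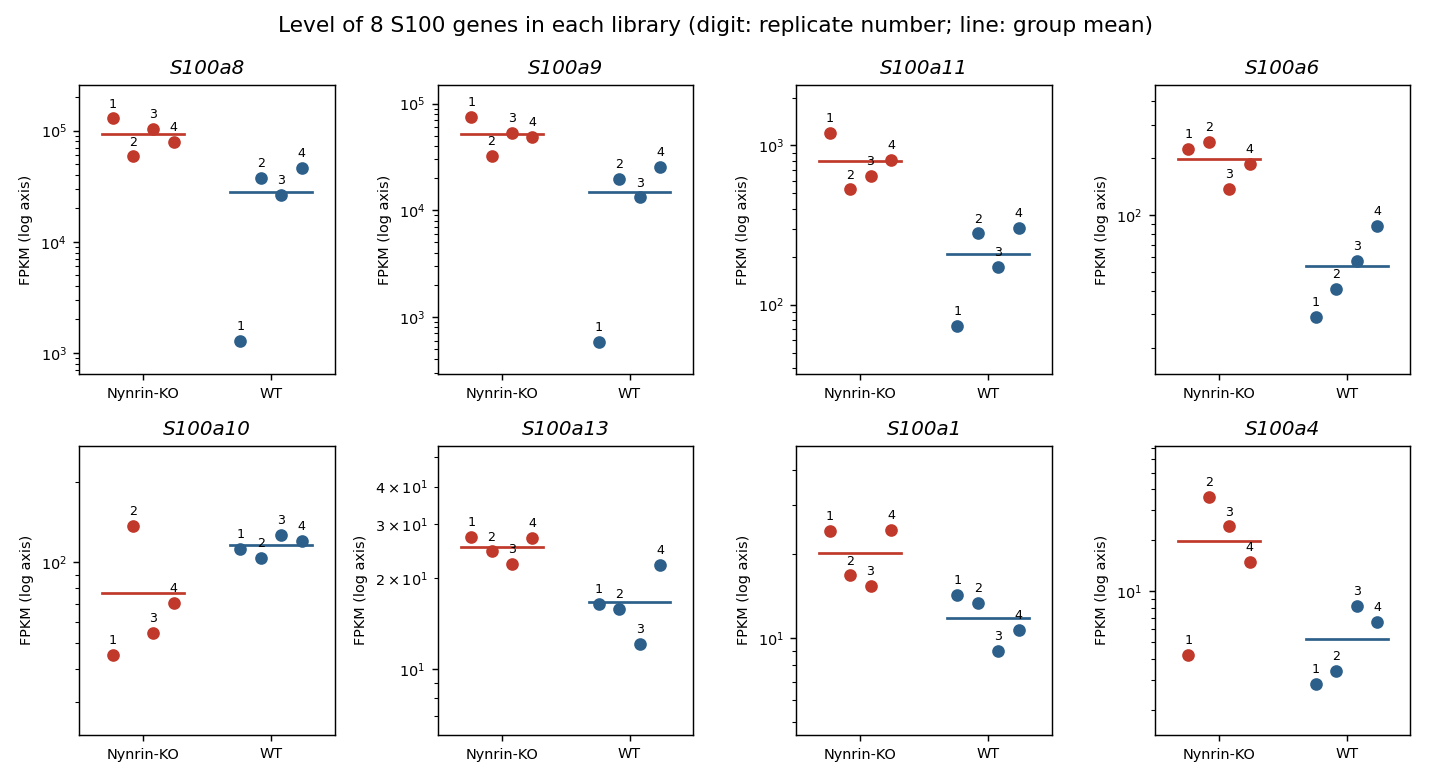
Each panel plots 1 S100 gene in FPKM on a log axis, with 1 point per library (digit: replicate number) and a line at the group mean, Nynrin-KO left of WT. The groups do not overlap for S100a8, S100a9, S100a11, S100a6, S100a13 and S100a1, and they overlap for S100a10 through KO2 and for S100a4 through KO1.

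The ratio between the subunits varied little across the libraries. The ratio of S100a8 to S100a9 FPKM was 1.72, 1.81, 1.96 and 1.64 in KO1 to KO4, against 2.22, 1.90, 1.98 and 1.80 in WT1 to WT4. These ranges overlapped, and the ratio spanned 1.35-fold over all 8 libraries. Together the pair took 10.3%, 4.60%, 7.92% and 6.45% of recovered reads in KO1 to KO4, against 0.0943%, 2.90%, 1.99% and 3.61% in WT1 to WT4. The other 6 members together took 0.0511% to 0.0859% of reads in Nynrin-KO libraries and 0.0160% to 0.0332% in WT libraries.

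Genes listed here as mature neutrophil genes moved with S100a8 and S100a9. Of 14 such genes, all tested, 9 were called higher in Nynrin-KO and 0 lower, with a median log2 difference of 2.36. Over all genes tested, 14.0% were called higher and 13.8% lower. The number of the 14 genes called higher was 4 without KO1, KO2, KO4 or WT2, and 5 without KO3. Their summed level was 91352, 39317, 66476 and 75807 FPKM in KO1 to KO4, against 1489, 27030, 18566 and 38518 FPKM in WT1 to WT4, so the groups did not overlap. At an unadjusted p under 0.05, 13 were higher and 0 lower, and voom called 8 higher and 0 lower. No gene of the list was at 0 in all libraries. The ratio of S100a8 to this sum was 1.41, 1.49, 1.56 and 1.04 in KO1 to KO4, against 0.865, 1.39, 1.41 and 1.19 in WT1 to WT4, with overlapping groups. Over all 8 libraries the ratio spanned 1.80-fold and the sum 61.3-fold. Ngp alone averaged 39864 FPKM of a mean sum of 68238 FPKM in Nynrin-KO, and 12789 of 21401 FPKM in WT. The list does not tell mature neutrophils from their late precursors. The part of either in the S100a8 and S100a9 differences was not tested.

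The 4 most abundant genes of that list encode granule or secreted proteins, and none passed the test. Ngp, neutrophilic granule protein, averaged 39864 ± 12887 FPKM in Nynrin-KO and 12789 ± 9172 FPKM in WT, with a log2 difference of 2.31 (limma adjusted p = 0.0958). Camp, the cathelicidin precursor, averaged 13747 ± 4043 FPKM and 4277 ± 3298 FPKM in the same groups (log2 2.50, adjusted p = 0.1003). Chil3 and Ltf, a chitinase-like protein and lactoferrin, had log2 differences of 2.09 and 2.40 (adjusted p = 0.0796 and 0.155). Ly6g did pass, with 264, 182, 190 and 93.5 FPKM in KO1 to KO4 against 0.707, 32.7, 49.3 and 38.7 FPKM in WT1 to WT4 (log2 3.23, adjusted p = 0.0381). It passed in 3 of the 8 fits that each left out 1 library, with adjusted p between 0.00818 and 0.0941.

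**Figure D3:**
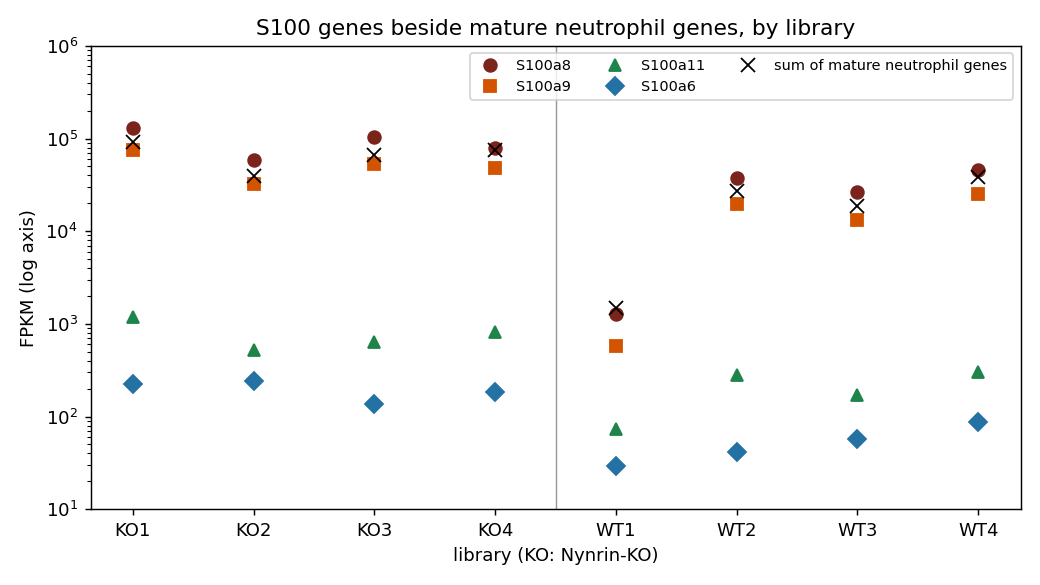
Levels in FPKM (log axis) of S100a8, S100a9, S100a11 and S100a6 and the summed level of 14 mature neutrophil genes are plotted for each library, Nynrin-KO left of WT. In WT1 the S100a8, S100a9 and neutrophil symbols drop to 1288, 581 and 1489 FPKM, while S100a11 and S100a6 are at 73.2 and 28.9 FPKM.

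S100a11 and S100a6 rose in Nynrin-KO LSCs whichever library was left out. S100a11 encodes a partner of annexin A1, and S100a6 encodes calcyclin. S100a11 (ENSMUSG00000027907) lies on chromosome 3 from 93520488 to 93526287, plus strand, and S100a6 (ENSMUSG00000001025) from 90612882 to 90624181, plus strand. Their windows, chr3:93520246-93520545 and chr3:90612644-90612943, both on the plus strand of GRCm38.p6 from RefSeq, are shown as those of the 2 members that passed in every fit with 1 library left out. Capitals mark the AP-1 letters TGANTCA on either strand, which 7.81% of all windows hold.
S100a11 promoter: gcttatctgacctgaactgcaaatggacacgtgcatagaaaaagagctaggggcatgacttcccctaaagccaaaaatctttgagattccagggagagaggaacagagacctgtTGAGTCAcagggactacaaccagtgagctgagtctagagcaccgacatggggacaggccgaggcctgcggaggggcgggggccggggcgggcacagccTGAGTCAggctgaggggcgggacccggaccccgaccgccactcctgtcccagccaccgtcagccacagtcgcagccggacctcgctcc
S100a6 promoter: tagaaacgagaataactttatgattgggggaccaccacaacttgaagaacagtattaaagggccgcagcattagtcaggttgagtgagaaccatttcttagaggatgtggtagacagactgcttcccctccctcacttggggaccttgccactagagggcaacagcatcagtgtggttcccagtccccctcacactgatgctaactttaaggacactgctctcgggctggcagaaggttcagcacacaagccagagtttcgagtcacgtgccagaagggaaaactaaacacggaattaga
The S100a11 window held the AP-1 letters at bases 115 to 121 and 213 to 219. The S100a6 window held none of the 4 motifs searched. Over the 7 members with a window in the table, TATAAA was found in 3 (S100a8, S100a9 and S100a4), the PU.1 letters in 2 (S100a8 and S100a4), and the C/EBP and AP-1 letters in 1 each.

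S100a11 was at 1200.5, 529, 641 and 815 FPKM in KO1 to KO4, against 73.2, 280, 172 and 303 FPKM in WT1 to WT4. Every Nynrin-KO library was above every WT library, with KO2 the lowest of the Nynrin-KO libraries and WT1 the lowest of all. The means were 796 ± 294 FPKM in Nynrin-KO and 207 ± 106 FPKM in WT (SD, n = 4 each). The log2 difference was 2.06 with an SE of 0.46 and a 95% interval of 1.03 to 3.10 (limma adjusted p = 0.0116). Leaving out 1 library at a time gave log2 differences of 1.63 to 2.31, all past the threshold.

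S100a6 was at 225, 244, 138 and 186 FPKM in KO1 to KO4, against 28.9, 41.0, 57.3 and 88.2 FPKM in WT1 to WT4. The lowest Nynrin-KO library, KO3, was above the highest WT library, WT4. The means were 198 ± 47.0 FPKM in Nynrin-KO and 53.9 ± 25.7 FPKM in WT (SD, n = 4 each). With a log2 difference of 1.95, an SE of 0.34 and a 95% interval of 1.17 to 2.72, S100a6 had the smallest adjusted p of the 8 members (limma, 0.00467). With 1 library left out the log2 difference was 1.69 to 2.22 and always passed. Restricted to the 5 libraries richest in Gm10800 (10000 FPKM or more), neither gene passed (S100a6 log2 1.56, adjusted p = 0.0853; S100a11 log2 1.84, adjusted p = 0.0573).

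S100a10 and S100a4 were the members whose groups overlapped, each through 1 Nynrin-KO library. S100a10 (ENSMUSG00000041959, chromosome 3 from 93555080 to 93564643, plus strand) encodes the subunit that joins annexin A2 and, unlike its relatives, does not bind calcium. It was at 45.1, 137, 54.3 and 70.4 FPKM in KO1 to KO4, against 112, 104, 126 and 120.01 FPKM in WT1 to WT4. KO2 was above all WT libraries and the other 3 Nynrin-KO libraries were below them. The means were 76.7 ± 41.5 FPKM in Nynrin-KO and 116 ± 9.63 FPKM in WT (SD, n = 4 each), with a log2 difference of -0.72, an SE of 0.32 and a 95% interval of -1.44 to 0.01 (limma adjusted p = 0.126). Without KO2 the difference was -1.04 and passed (adjusted p = 0.0186).

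S100a4 (ENSMUSG00000001020, chromosome 3 from 90603771 to 90606045, plus strand) encodes metastasin, which binds non-muscle myosin. It had the lowest mean of the members in both groups, though not in KO2 and KO3, where it was above S100a13 and S100a1. It was at 4.24, 36.1, 24.2 and 15.0 FPKM in KO1 to KO4, against 2.85, 3.40, 8.19 and 6.64 FPKM in WT1 to WT4. These values rest on 20, 415, 22 and 214 reads in KO1 to KO4 and on 47, 12, 8 and 57 reads in WT1 to WT4. KO1 fell within the WT range, and KO2, KO3 and KO4 were above it. The means were 19.9 ± 13.6 FPKM in Nynrin-KO and 5.27 ± 2.56 FPKM in WT (SD, n = 4 each), with a log2 difference of 1.51, an SE of 0.57 and a 95% interval of 0.22 to 2.80 (limma adjusted p = 0.0790). Without KO1 the difference was 2.07 and passed (adjusted p = 0.0124). Of the 584 exonic bases of S100a4, 302 (51.7%) are shared with Gm42674 on the same strand. Gm42674 is not among the genes of the deposited table, so no split of reads with it can be seen. Whether the counting set shared reads aside is not known.

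S100a13 and S100a1 form a head-to-head pair with 42 bases between their annotated ends, and both had modest differences. S100a13 (ENSMUSG00000042312, chromosome 3 from 90514435 to 90524581, plus strand) encodes a protein that takes part in the release of FGF1 and interleukin 1 alpha. It was at 27.3, 24.4, 22.20 and 27.0 FPKM in KO1 to KO4, against 16.4, 15.8, 12.1 and 21.99 FPKM in WT1 to WT4. The groups did not overlap, though KO3 and WT4 nearly met. The means were 25.2 ± 2.40 FPKM in Nynrin-KO and 16.6 ± 4.07 FPKM in WT (SD, n = 4 each). The log2 difference of 0.60, with an SE of 0.20 and a 95% interval of 0.15 to 1.05, missed the threshold (limma adjusted p = 0.0508). It passed under 7 of 23 alternative settings, including the same fit at a threshold of 0.1, with adjusted p from 0.0152 to 0.324.

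S100a1 (ENSMUSG00000044080, chromosome 3 from 90511034 to 90514392, minus strand) is best known from heart muscle, where its protein acts on calcium cycling. It was at 24.1, 16.8, 15.4 and 24.4 FPKM in KO1 to KO4, against 14.3, 13.4, 9.03 and 10.7 FPKM in WT1 to WT4. KO3, the lowest Nynrin-KO library, was only slightly above WT1, the highest WT library. The means were 20.2 ± 4.77 FPKM in Nynrin-KO and 11.8 ± 2.41 FPKM in WT (SD, n = 4 each). S100a1 rose by 0.71 on the log2 scale, with an SE of 0.22 and a 95% interval of 0.22 to 1.21 (limma adjusted p = 0.0396). The call was lost in 7 of the 8 fits that left out 1 library, all but the one without KO3, with adjusted p of 0.0502 to 0.108. The ratio of S100a13 to S100a1 FPKM was 1.11 to 1.46 in Nynrin-KO libraries and 1.15 to 2.05 in WT libraries, with overlapping groups.

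Single libraries decided several of these calls. The number of members called higher ranged from 2 to 4 over the 8 fits with 1 library left out. In those fits 16.6% to 28.0% of all genes tested were called in either direction. S100a11 and S100a6 were in every count. S100a8 and S100a9 joined them without WT1, S100a13 and S100a1 without KO3, S100a4 without KO1 and S100a13 without WT4. Without KO2, KO4, WT2 or WT3 the count was 2. The number called lower was 1 without KO2, through S100a10, and 0 in the other 7. The sign of each member's difference was the same in all 8 fits.

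**Figure D4:**
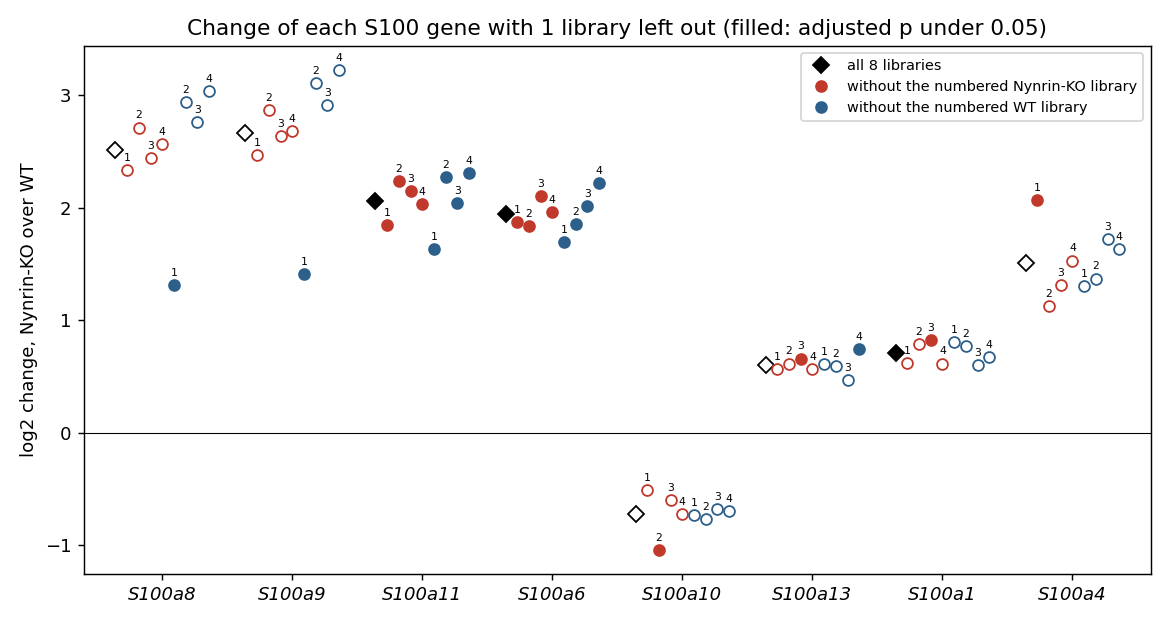
The vertical axis gives the log2 difference of Nynrin-KO over WT for each S100 gene with all 8 libraries (diamond) and without the numbered library (circles), filled where the adjusted p is under 0.05. S100a11 and S100a6 are filled throughout, and S100a8 and S100a9 drop to 1.32 and 1.41 and become filled without WT1.

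By mean level, Nynrin-KO libraries ordered the members as S100a8, S100a9, S100a11, S100a6, S100a10, S100a13, S100a1 and S100a4. In WT libraries S100a10 came before S100a6 and the order was otherwise the same. Neighbours in the Nynrin-KO order that overlapped in range were S100a8 with S100a9, S100a13 with S100a1 and S100a1 with S100a4. In the WT order they were S100a8 with S100a9, S100a11 with S100a10 and S100a13 with S100a1. S100a6 and S100a10 did not overlap in either group, barely so in Nynrin-KO, and changed places between them.

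Across the 8 libraries the members fell into unlike patterns, described here by Pearson's r of log2(FPKM + 1) over libraries that differ in depth and in genotype. S100a8 and S100a9 had an r of 0.999. S100a11 had 0.913 with S100a8 and 0.903 with S100a6. S100a13 had 0.809 with its head-to-head neighbour S100a1, no higher than with S100a6 (0.837) and close to that with S100a11 (0.806). S100a10 was negative with S100a8 (-0.51) and with S100a11 (-0.69). The search covered 5033 tested genes with a mean of at least 5 FPKM, without the members, unnamed gene models and annotated pseudogenes. Those most like S100a8 were Ngp (0.995), Camp (0.993) and Cstdc4 (0.990), and those most like S100a9 were Ngp (0.997), Camp (0.995) and Chil3 (0.989). Those most like S100a11 were Rflnb (0.994), Ly6g5b (0.993) and Ptgs1 (0.993), which encodes cyclooxygenase 1. For S100a6 they were Trib1 (0.989), Neurl3 (0.988) and Pde4b (0.986), a cAMP phosphodiesterase. For S100a10 they were Ifi30 (0.985), Cdkn1a (0.966), the p21 cell cycle inhibitor, and H2aw (0.948). For S100a4 they were Polb (0.986), Ms4a6d (0.984) and Ms4a4c (0.973). S100a13 was closest to Tk2 (0.983), Ostf1 (0.978) and Atg7 (0.972), and S100a1 to Kdm5a (0.955), Osbpl2 (0.945) and Ncor1 (0.943).

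The other S100 genes were at low levels. The table holds 10 further S100 genes, of which the highest value in any library was 2.44 FPKM and the highest read number 25. Only S100a2 passed the filter on low values, and it rests on 2, 3, 1 and 3 reads in KO1 to KO4 and on 2, 3, 1 and 6 reads in WT1 to WT4. These lie at or under the floor of 3 reads in every library but WT4, so a difference was not measurable at this depth. Another 4 stayed under 1 FPKM in every library. On the chromosome, S100a1, S100a13, S100a4, S100a6, S100a8 and S100a9 lie within 185 kb, and S100a11 and S100a10 lie 2.82 Mb further along. Of 7 other protein-coding genes within the 185 kb, 6 are in the table and S100a2 alone passed the filter. The processed copy S100a11-ps reached at most 0.379 FPKM.

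Receptors of S100A8 and S100A9 moved in both directions. Of 10 listed genes, 7 were tested, 3 were higher and 2 lower in Nynrin-KO, with a median log2 difference of 1.21. For these and the macrophage genes below, the shares over all genes tested were 14.0% higher and 13.8% lower. Tlr4, the receptor through which the released pair signals, rose to 4.93 ± 1.41 FPKM in Nynrin-KO, against 1.33 ± 0.758 FPKM in WT (log2 1.38, limma adjusted p = 0.00868). Cd36, a fatty acid scavenger receptor, averaged 5.14 FPKM in Nynrin-KO and 1.02 FPKM in WT (log2 1.58, adjusted p = 0.00785). Cd33, a sialic acid receptor that binds S100A9 in humans, averaged 110 FPKM and 35.8 FPKM in the same groups (log2 1.74, adjusted p = 0.0258) and did not pass in 2 of 8 fits with a library left out. Bsg, which encodes basigin, a receptor for S100A9 in humans, fell to 68.4 FPKM in Nynrin-KO, against 186 FPKM in WT (log2 -1.43, adjusted p = 0.0115). The early activation antigen Cd69 fell to 16.01 FPKM in Nynrin-KO, against 31.3 FPKM in WT (log2 -0.96, adjusted p = 0.0163), and missed the threshold without WT2, when 1 receptor was lower. By voom on recovered reads 5 receptors were higher. Macrophage genes moved the same way as Tlr4 and Cd36: 7 of 9 were called higher and 0 lower, in all 8 fits with a library left out, and their sum was 254 to 711 FPKM in Nynrin-KO libraries and 48.2 to 75.5 FPKM in WT libraries. At an unadjusted p under 0.05 and by voom, 7 macrophage genes were likewise higher and 0 lower. In the 5 libraries richest in Gm10800 (10000 FPKM or more) 4 were higher and 0 lower, where 4.03% of all genes tested were called. Apoe alone averaged 235 FPKM of a mean macrophage sum of 434 FPKM in Nynrin-KO, and 6.48 of 62.3 FPKM in WT. The part of macrophage genes in the receptor and S100 differences was not tested.

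Annexins and other intracellular partners were mostly higher where they passed. Of 14 listed genes 12 were tested, 5 were higher and 1 lower, with a median log2 difference of 0.57. Over all genes tested, 14.0% were called higher and 13.8% lower. Anxa1, the partner of S100A11, averaged 770 ± 291 FPKM in Nynrin-KO and 318 ± 174 FPKM in WT (log2 1.37, limma adjusted p = 0.0382). Anxa2, the partner of S100A10, averaged 313 ± 71.2 FPKM and 171 ± 36.5 FPKM in the same groups (log2 0.86, adjusted p = 0.0270), while S100a10 itself had a negative difference. Anxa4 (log2 1.28, adjusted p = 0.00785) and Anxa11 (log2 0.86, adjusted p = 0.0381) were the other annexins named. Cacybp, whose product binds S100A6, fell to 42.5 FPKM in Nynrin-KO, against 112 FPKM in WT (log2 -1.40, adjusted p = 0.0105), in contrast to S100a6. Cacybp and Anxa4 passed in every fit with 1 library left out, Anxa1 and Anxa2 in 2 of the 8 and Anxa11 in 1. The count of 5 did not hold: it was 1 without KO2, KO4, WT1, WT2 or WT3, 2 without KO1, 3 without WT4 and 6 without KO3.

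**Figure D5:**
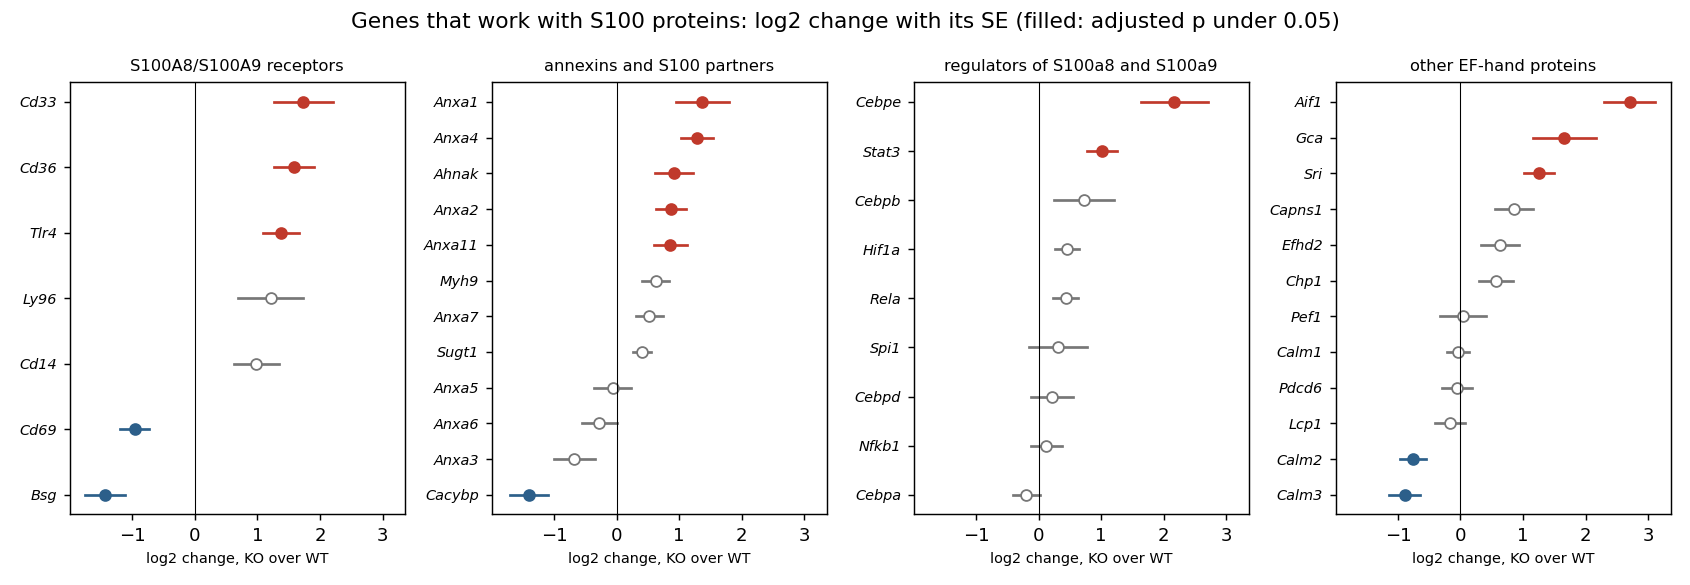
Each panel lists the tested genes of 1 group that works with S100 proteins, with the log2 difference of Nynrin-KO over WT and its SE, filled where the adjusted p is under 0.05. Receptors have 3 filled points above 0 and 2 below, partners 5 and 1, regulators 2 and 0, and other EF-hand proteins 3 and 2.

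Of 9 genes whose products are known to regulate S100a8 and S100a9, all tested, 2 were higher, 0 lower and 7 did not pass, with a median log2 difference of 0.43. The share of all genes tested that was called was 27.9%, 14.0% higher and 13.8% lower, so the count of regulators is near the background. No regulator with a negative difference had an unadjusted p under 0.05, and voom on recovered reads also called 2 higher and 0 lower. Cebpe, the C/EBP factor of late granulocyte maturation, averaged 54.9 ± 19.9 FPKM in Nynrin-KO and 12.7 ± 7.04 FPKM in WT (log2 2.17, limma adjusted p = 0.0178). Stat3, a cytokine-activated factor, averaged 25.3 FPKM and 11.8 FPKM in the same groups (log2 1.01, adjusted p = 0.0142). Spi1, which encodes PU.1, had a log2 difference of 0.31 and did not pass (adjusted p = 0.653). Cebpe missed the threshold without KO1, KO2 or KO4, when 1 regulator was higher, and Stat3 passed in every such fit.

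Other EF-hand genes split by member. Of 12 genes, all tested, 3 were higher and 2 lower, with a median log2 difference of 0.30. The shares over all genes tested were 14.0% higher and 13.8% lower. Aif1, a macrophage-enriched actin-binding protein, averaged 24.8 FPKM in Nynrin-KO and 2.94 FPKM in WT (log2 2.70, limma adjusted p = 0.00283). Sri, sorcin, had a log2 difference of 1.25 (adjusted p = 0.00659), and Gca, grancalcin of neutrophils, one of 1.66 (adjusted p = 0.0364); Gca passed in 4 of the 8 fits with a library left out, and Aif1 and Sri in all. Calm2 fell to 474 FPKM in Nynrin-KO, against 799.6 FPKM in WT (log2 -0.76, adjusted p = 0.0282), and Calm3 to 11.6 FPKM, against 21.8 FPKM in WT (log2 -0.89, adjusted p = 0.0262). Both encode calmodulin. No EF-hand gene was lower without KO1, WT1 or WT2, and 1 was without KO2, KO3, WT3 or WT4; 5 were higher without KO3. Under quantile normalization Calm2 had a log2 difference of -0.09 and did not pass (adjusted p = 0.733).

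Markers of further blood cell types had the following values, and their part in the S100 differences was not tested. Beside their counts, 14.0% of all genes tested were called higher and 13.8% lower. The c-Kit+ gate selects against mature B, T and NK cells and late erythroid cells. Promyelocyte granule genes had 1 of 5 higher and 3 lower in Nynrin-KO, and their sum was 2257 to 5705 FPKM in Nynrin-KO libraries and 4726 to 8104 FPKM in WT libraries. Monocyte genes had 2 of 8 lower and 6 that did not pass, with sums of 1634 to 3790 FPKM and 1922 to 2899 FPKM in the same groups. Stem and progenitor genes had 2 of 7 higher and 3 lower, with sums of 34.6 to 58.6 FPKM in Nynrin-KO libraries and 93.8 to 243 FPKM in WT libraries. The 2 higher were Hoxa9 and Meis1, whose products drove the leukaemia in both groups, so they are no independent markers. The 3 lower were Cd34, Flt3 and Gata2, while Kit and Myb did not pass. Cd34 alone averaged 6.26 FPKM of a mean sum of 44.7 FPKM in Nynrin-KO, and 86.4 of 144 FPKM in WT. Among tested genes of mast cells, basophils and eosinophils 3 of 5 were higher, of erythroid cells 3 of 3, of B cells 1 of 3, of megakaryocytes 1 of 2 and of T and NK cells 1 of 1. No listed gene was at 0 in all 8 libraries. The labelled stem cell identity thus stands beside Kit at 2.63 to 6.40 FPKM and S100a8 among the most abundant genes in 7 of 8 libraries.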

How the data were processed

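RNA-seq was measured in 4 Nynrin-KO and 4 WT libraries of sorted LSCs. The authors deposited FPKM values for 48500 genes in one table, whose header names no unit. In each library 13666 to 28963 values were checked after multiplication by transcript length. Of these, 99.4% to 99.5% fell within 0.1 of whole multiples of 1 read's worth, which shows a scaling by length. Values times length in kb summed to 999541 to 999685 per library, near 1e6, so they were read as FPKM. Per the submitters' processing notes, Bowtie 0.12.9, Cufflinks 2.1.1, HTSeq and mm10 were used. The counting rule and any use of strand were not stated in those notes. GENCODE M21 (GRCm38) matched 99.62% of the identifiers and gave coordinates and lengths. Promoters came from RefSeq on GRCm38.p6 for 7 of the 8 members.

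Genes that reached 1 FPKM in 4 or more of the 8 libraries entered a limma fit (version 3.58.1, R 4.3.3) of log2(FPKM + 1), a scale that understates differences of low genes, with trend and robust variances and group as the only term. Tests were two-sided, with Benjamini-Hochberg adjustment over all genes tested at 0.05. The fit was tested on simulated data. The lowest measurable level, 3 reads of a 1 kb transcript, was 0.105 to 1.64 FPKM in Nynrin-KO libraries and 0.0907 to 1.53 FPKM in WT libraries, covering counting error only. Figures and summaries used Python 3.11.15, numpy 2.4.6, pandas 2.3.3 and matplotlib 3.10.9.

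The members and lists were chosen with earlier results of these data known. Named are all 8 members, other S100 genes and genes within the cluster that pass the filter, and, of each partner list, genes past the threshold, at most the 4 with the smallest p per direction. Also named are the 4 most abundant mature neutrophil genes, Ly6g, Kit and the 3 genes most correlated with each member. S100a11-ps, Spi1, Apoe, the named stem and progenitor genes other than Kit, and genes that describe the libraries were named after their values were seen. Alternatives covered the pseudocount, filter, scaling, limma options, array weights, the replicate number as a block, voom on recovered reads, thresholds and libraries left out. The same alternatives for the lists and for named genes outside the 8 were added after the data were seen.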

Additional observations from a re-analysis of the deposited data

Results flagged for a closer look

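S100a8 in WT1, at 1288 FPKM, lay far from the other 3 WT libraries. On the log2(FPKM + 1) scale its gap to the nearest of them was 0.843 of the whole WT range. That is above Dixon's 95% critical value for 4 samples, and the rule was not applied to the FPKM values themselves. S100a9 in WT1 came close, at 0.826, just under that value. Among 16 groups examined, chance marks about 1 in 20. WT1 also had the lowest summed level of mature neutrophil genes, and it was the deepest library, at 33.1 M reads.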

How the results depend on the processing

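Over 23 alternative settings no member's difference changed sign, and of 184 member values 151 stayed on their side of the threshold, 19 newly passed and 14 no longer passed. S100a6 passed in 22 settings and S100a11 in 21, S100a1 in 12, S100a13 in 7, S100a4 in 5, S100a8 in 3, and S100a9 and S100a10 in 2 each. Passing was judged at each setting's own threshold. The settings at 0.01 and 0.1 reused the reported fit. At 0.1 S100a8, S100a9, S100a4 and S100a13 newly passed, and at 0.01 S100a11 and S100a1 no longer passed. The number of genes called was 3488 as reported, 1698 without a filter on low values, 1454 at an adjusted p under 0.01, 1814 without both replicates 1 and 698 in the 5 libraries richest in Gm10800 (10000 FPKM or more), with 2324 to 3676 when 1 library was left out. The number of members higher was 5 with array weights, 1 at an adjusted p under 0.01, 7 at an adjusted p under 0.1 and 1 in the Gm10800 libraries, with 2 to 4 when 1 library was left out. The number of members lower was 1 in the Gm10800 libraries (S100a10, log2 -1.22, adjusted p = 0.0399), where S100a8 was the member higher (log2 1.70, adjusted p = 0.0442), and 0 to 1 when 1 library was left out. Calls in either direction took 39.3% of all genes tested with array weights, 11.6% at an adjusted p under 0.01 and 36.8% at one under 0.1. They took 4.03% in the Gm10800 libraries and 16.6% to 28.0% with 1 library left out. The Gm10800 fit and those with libraries left out held fewer samples, and the cause of the other moves was not tested. Higher calls were 50.3% of all calls as reported, 24.5% in the Gm10800 libraries and 42.4% without KO4. With the replicate number as a block (replicate block), 2838 genes were called and 4 members were higher, S100a4 being added (adjusted p = 0.0494), with 5 receptors and 2 annexins or partners higher, 0 EF-hand genes lower and 4 mature neutrophil genes higher. Deviations of same-numbered libraries from their group means had correlations of -0.21, -0.39, 0.33 and 0.01. Differently numbered libraries had -0.47 to 0.53. KO3 and WT3, at 0.33, were also the shallowest libraries. These few correlations cannot show whether the numbers pair the libraries. Of 989 values of named genes outside the 8 members, 782 stayed on their side, 23 newly passed, 184 no longer passed and 0 changed sign. Depth limits S100a4 most, at 8 to 57 reads in the WT libraries.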

Other observations

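S100a11 and S100a10 lie close together on chromosome 3 and both encode annexin partners, yet their balance differed between the groups. The ratio of S100a11 to S100a10 FPKM was 26.6, 3.86, 11.8 and 11.6 in KO1 to KO4, against 0.651, 2.69, 1.36 and 2.52 in WT1 to WT4. S100a10 was thus the more abundant of the pair in WT1 alone. The ratio was chosen after its values were seen and was not tested.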
